A study of Mus musculus with 8 samples.

Results

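Nuclear-encoded genes of the mitochondrial respiratory chain were taken by name from a table of cluster markers, as the symbols that begin with Nduf, Uqcr, Atp5, Cox4, Cox5, Cox6, Cox7 or Cox8, plus Cycs and Cyc1. This rule found 83 of the 3903 gene symbols in the table (2.13%), and these 83 genes held 293 of its 13337 entries (2.2%). An entry is 1 gene in 1 of 12 cell clusters, numbered 0 to 11, set against all other cells. By their names, 39 members belong to complex I, 4 are assembly factors of complex I, 9 belong to complex III, 13 to complex IV and 17 to the ATP synthase, and Cycs encodes cytochrome c. The complex I group holds Ndufb1-ps, which the GENCODE M21 annotation lists as a non-coding RNA. It also holds Ndufa4, since placed in complex IV, and its paralog Ndufa4l2. Counts of complex I genes below include all of these, so they follow the names and are not counts of complex I subunits.

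The cells were preadipocytes from the inguinal white fat of C57BL/6 mice, grown in culture. The mice were either wild type (WT) or carried whole-animal deletions of both genes for the nucleosome-binding proteins HMGN1 and HMGN2 (genotype Hmgn1-/- and Hmgn2-/-, called DKO). Single-cell RNA-seq was performed on duplicate cultures of each genotype at day 0 and at day 6 of a browning induction that used insulin, dexamethasone, IBMX, T3 and rosiglitazone and then insulin with T3, which gave 8 samples in 4 groups of 2. The table pools the cells of the 8 samples and gives no value for a sample, so no value below has a replicate, an SD or a test, DKO was not compared with WT nor day 6 with day 0, and the loss of the deleted genes could not be checked sample by sample.

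The respiratory chain sits in the inner mitochondrial membrane. Complex I takes electrons from NADH and complex II from succinate, complex III hands them to cytochrome c, complex IV passes them to oxygen, and the ATP synthase uses the proton gradient built on the way to make ATP. Most subunits are encoded in the nucleus and a few core subunits in the mitochondrial genome, and brown and beige adipocytes are known for many mitochondria with a highly active chain.

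The measurement used throughout was detection, the percent of cells in which at least 1 transcript of a gene was counted. Each entry gives it for the cells of the cluster and for all other cells. A difference of at least 10 percentage points is called higher or lower below, and a smaller difference is given as its value only. Entries exist only where the authors' comparison passed its minimum detection and fold change, so each listed gene was selected for a difference in that cluster, in either direction, and the lack of an entry says nothing of a level of 0. For this reason each count of members is set beside the same share over all entries of the cluster, which passed the same minimums. Detection depends on the RNA captured per cell as well as on the expression of a gene, and the depth per cell and the cell numbers are unknown, so fewer transcripts of a gene and less RNA per cell cannot be told apart.

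Over all cells, the respiratory chain genes were detected broadly. Their detection had a median of 81.3%, against 47.3% for all symbols in the table; 13 members were detected in at least 90% of cells, 62 in 50 to 90% and 8 in fewer than 50%. The ATP synthase subunits had the highest median of the complexes at 89.0% (70.9% to 93.3%), next to complex IV at 88.8% (12.7% to 97.0%). Complex III followed at 81.3% (50.7% to 91.4%) and complex I at 72.5% (37.3% to 91.2%), while the 4 assembly factors of complex I lay at 40.2% (17.6% to 42.0%). The ranges of the complexes overlapped widely, and detection is not a level per transcript length.

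The most widely detected members were 3 structural subunits of complex IV, Cox4i1 at 97.0%, Cox7c at 95.4% and Cox8a at 94.6%. At the other end stood Cox6a2, the heart and skeletal muscle isoform of subunit 6a, at 12.7%, Cox7a1, the muscle and brown fat isoform of subunit 7a, at 14.7%, and the complex I assembly factor Ndufaf1 at 17.6%. Among the larger subunits, Ndufs1, the largest iron-sulfur protein of complex I, was detected in 37.3% of cells and Uqcrc1, a core protein of complex III, in 50.7%.

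Clusters 2, 4 and 11 held 198 of the 293 entries (67.6%). Of all 13337 entries these clusters held 1133, 2072 and 2487, in this order, and clusters 11 and 4 had the most entries of any cluster. Clusters 11, 4, 2, 6 and 8 listed 78, 69, 51, 21 and 17 members, in this order, and the other clusters from 2 to 12 each. A call outside clusters 4, 10 and 11 was made for 17 members, and the other 66 had none. The same count was not made over all symbols, and widely detected members had little room to be higher. These counts are therefore not a result about the respiratory chain. The map of differences by gene and cluster shows this layout.

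**Figure D1:**
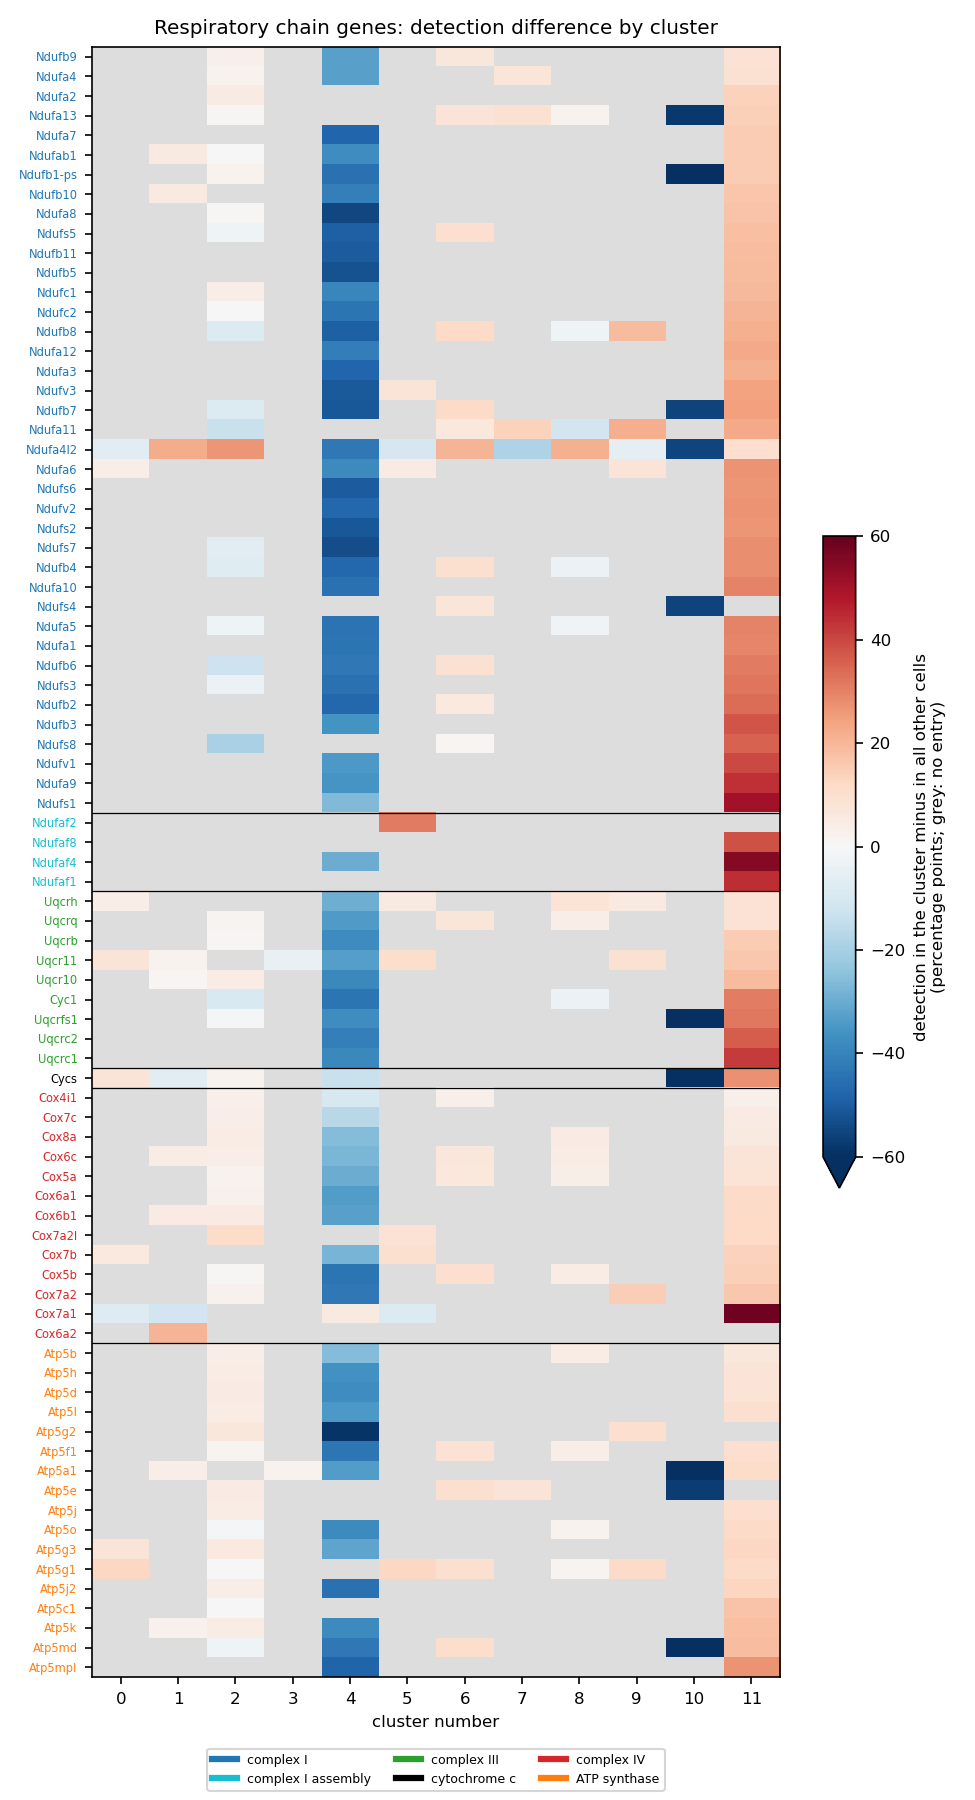
Each row is 1 of the 83 genes, grouped and coloured by complex, and each column is 1 of the 12 clusters. Colour gives detection in the cluster minus detection in all other cells in percentage points, from blue (lower) to red (higher), and grey marks no entry; the column of cluster 11 is red for 78 of 78 listed genes and that of cluster 4 blue for 68 of 69.

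Cluster 11, which held 1.5% of the cells, had more members called higher than any other cluster. Of the 78 members listed there, 78 were detected in more cells inside the cluster than outside it, by 3.0 to 58.5 percentage points. In 64 of 78 (82.1%) the difference reached 10 points, against 44.4% of all 2487 entries of the cluster, and 0 of 78 were lower, against 28.7%. Median detection of the members was 99.1% inside and 81.0% outside, and the median difference was 18.2 points for members and 6.6 points for all entries. The 14 members short of 10 points included 13 that were detected in more than 90% of the other cells, where less than 10 points of room remained; the 14th was Ndufa4l2, described further below. On a log2 odds scale, 77 of 78 members were at least 1 higher, against 48.2% of all entries. That scale enlarges small gaps near 100%, since Cox4i1 at 3.0 points scored 5.95 and Cox7a1 at 58.5 points scored 4.027. Members were also more widely detected outside the cluster than all entries (median 81.0% against 48.7%). The share on this scale is therefore partly set by the members' wide detection and is not separate support. Among entries detected in 50 to 95% of the other cells, 58 of 70 members were higher, against 44% of entries, with a median difference of 17.6 points for members and 8.3 points for all.

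Within complex I, 35 of 38 listed genes were higher in cluster 11, against 44.4% of all entries, with a median difference of 23.5 points. The largest was that of Ndufs1, at 87.1% in the cluster and 36.5% in the other cells. Ndufa9, an accessory subunit of the peripheral arm, stood at 88.1% and 44.2%. Ndufv1, which binds NADH and the flavin cofactor, was at 92.4% and 52.7%, and the iron-sulfur subunit Ndufs8 at 88.5% and 53.3%. These subunits were among the less widely detected ones elsewhere and so had the most room to differ. The 3 assembly factors listed in cluster 11 were higher too, Ndufaf4 at 93.0% against 38.1%, Ndufaf1 at 61.0% against 16.9% and Ndufaf8 at 79.3% against 41.0%.

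In complex III, 7 of 9 subunits were higher in cluster 11, against 44.4% of all entries. The core proteins Uqcrc1 (91.9% against 50%) and Uqcrc2 (97.5% against 61.4%) differed most, followed by the Rieske iron-sulfur protein Uqcrfs1 (98.2% against 66.5%) and cytochrome c1, Cyc1 (98.7% against 68.2%). The other 2, the small subunits Uqcrh and Uqcrq, were at 91.2% and 91.0% outside the cluster. Cycs, the mobile electron carrier between complexes III and IV, reached 99.6% inside the cluster, from 72.4% outside it.

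In complex IV, 7 of 12 listed subunits were higher in cluster 11, against 44.4% of all entries. Cox7a1 had the largest difference of any member in any cluster in the upward direction, at 72.3% inside and 13.8% outside. Its widely expressed partner Cox7a2 was at 98.9% and 82.7%. Of the ATP synthase subunits, 11 of 15 listed were higher, against the same 44.4% of entries, with a median difference of 11.3 points. The 2 small membrane subunits Atp5mpl (97.3% against 70.5%) and Atp5md (99.1% against 80.4%) led this group, whereas the subunits Atp5a1 and Atp5b of the catalytic head were at 100% inside the cluster, against 89.1% and 93.2% outside it. Atpif1, which encodes the inhibitor of the ATP synthase and is not a member by the naming rule, was at 82.0% inside cluster 11 and 82.6% outside it.

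**Figure D2:**
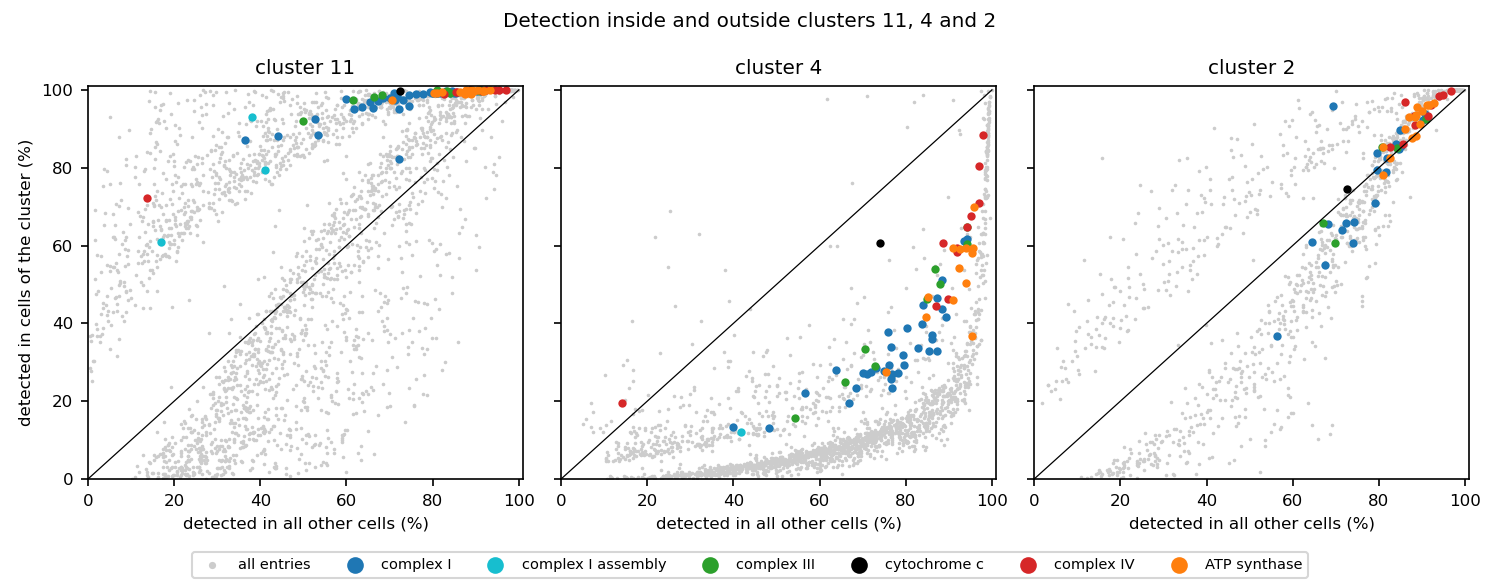
Each point is 1 entry, with detection in all other cells on the horizontal axis and detection in the cells of the cluster on the vertical axis, both in percent, for clusters 11, 4 and 2; grey points are all entries, coloured points the members by complex, and the line marks equal detection. In cluster 11 the 78 members lie above the line, in cluster 4 all but Cox7a1 lie under it, and in cluster 2 they lie on both sides of it, from Ndufs8 at 36.7% against 56.3% to Ndufa4l2 at 95.8% against 69.3%.

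Other nuclear-encoded mitochondrial genes were also higher in cluster 11, where 44.4% of all entries were higher. The 4 subunits of complex II, the succinate dehydrogenase, were all higher, with a median difference of 37.4 points. Among 38 assembly factors of complexes III and IV and the ATP synthase and related small proteins, 18 were listed in cluster 11 and 17 of them were higher. For fatty acid oxidation and the citrate cycle, 29 of 32 genes were listed and 29 were higher, with a median difference of 44.1 points. Carriers and channels that exchange ADP, ATP and phosphate were higher in 4 of 5. Of 12 regulators of mitochondrial genes, 3 were listed and all were higher, the coactivators Ppargc1b (79.7% against 3.8%) and Ppargc1a (47.5% against 1.8%) and the nuclear receptor Esrra (57.9% against 13.7%). Outside the cluster, detection of the coactivators lay below the authors' minimum. Their entries could therefore only be higher ones, and that direction is not a result.

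The 12 listed mitochondrially encoded transcripts left little room, with a median of 97.8% outside the cluster, and 5 were higher, against 44.4% of all entries. The least detected of them, mt-Nd6 of complex I, was at 96.6% inside and 50.1% outside, and mt-Atp8 of the ATP synthase at 99.6% and 67.5%. Clusters 2, 6 and 8 also had 5 higher each, of 12, 11 and 13 listed, against 24.6%, 51.9% and 26.2% of entries. There mt-Nd6 and mt-Atp8 were higher too, so their difference was not particular to cluster 11. In clusters 3, 4 and 10 mt-Nd6 and mt-Atp8 were lower, and mt-Nd6 was also lower in clusters 0 and 1.

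Markers of fat cells and of general cell content also differed in cluster 11, where 44.4% of all entries were higher and 28.7% lower. Of 10 adipocyte markers 9 were higher, with a median difference of 72.0 points, and of 4 listed preadipocyte markers 3 were lower, among them Pdgfra at 21.9% against 65.0%. The 4 listed of 11 thermogenic markers (Elovl3, Gk, Pdk4 and Ppargc1a) were higher. Outside the cluster, Elovl3 (2.8%), Pdk4 (7.1%) and Ppargc1a (1.8%) lay below the authors' minimum detection. So did the adipocyte markers Cidec (5.7%) and Plin4 (8.8%). Entries of these genes in cluster 11 could only be higher ones, so their direction is not a result. Ppargc1a is also 1 of the regulators above. The other 7 thermogenic markers, Ucp1 and Cidea among them, had no entry in any cluster. Proteasome subunits, which serve here as genes outside mitochondria, were higher in 13 of 13, with a median difference of 25.6 points, while 41 listed cytosolic ribosomal proteins, at a median of 97.6% outside, had 0 higher. The part of RNA content per cell in the differences of cluster 11 was not tested. No immune, endothelial, glial or skeletal muscle marker of the lists used (6, 5, 5 and 8 genes) had an entry in any cluster. The authors had removed immune, glial and endothelial cells before the final clustering, so the absence of those markers is not a result.

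Cluster 4, with 9.59% of the cells, lay at the opposite end. Of 69 members listed, 67 were lower (97.1%), against 92.8% of all 2072 entries, and 0 were higher, against 0.82%. The share of members called lower was thus close to that of the cluster as a whole. Median detection of members was 39.9% inside and 85.1% outside, a median difference of -39.2 points, while all entries had a median of 10.8% inside and 63.0% outside and a median difference of -47.2 points. Among entries detected in 50 to 95% of the other cells, 57 of 57 members were lower, against 99.1% of entries, with a median difference of -42.7 points for members and -57.9 points for all.

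Complex I genes in cluster 4 had a median of 30.6% inside and 77.6% outside, and 34 of 34 listed were lower. The counts by complex here are close to the 92.8% of all entries of the cluster called lower. Ndufa8 (32.8% against 87.3%) and the iron-sulfur core subunit Ndufs7 (23.4% against 76.7%) differed most. For complex III, 9 of 9 were lower, with Cyc1 at 29.1% against 72.9% and Uqcrc2 at 24.8% against 65.9%. The ATP synthase had 13 of 13 lower, and Atp5g2, 1 of 3 genes that encode the same mature c subunit of the rotor, showed the largest difference of the cluster's members, 36.8% against 95.4%.

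Complex IV held the exceptions. Cox4i1 stood at 88.5% in cluster 4 (97.9% outside), short of a call, and Cox7c at 80.4% (96.9%). Cox5b (46.2% against 89.8%) and Cox7a2 (44.4% against 87.1%) were the subunits with the largest differences. Cox7a1 was the member detected in more of the cells of cluster 4 than of the others, at 19.5% against 14.2%, which is short of a call. Cycs also differed less than most members there, at 60.7% against 74.1%.

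Over all entries of cluster 4, 92.8% were lower and 0.82% higher. Of the mitochondrially encoded transcripts, 9 were listed in cluster 4 and 5 were lower. The detection of mt-Nd1 was 96.7% against 98.3% and that of mt-Atp6 99.7% against 99.1%, values near 100% that cannot show a difference in level. Proteasome subunits were lower in 17 of 17 (median difference -61.8 points) and cytosolic ribosomal proteins in 48 of 72. Of 10 adipocyte markers 5 were higher in cluster 4 and 0 lower, with Adipoq, an adipocyte hormone, at 40.5% against 16.4%. Chchd10, a small mitochondrial protein of the assembly list, was higher too, at 90.5% against 80.4%.

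Cluster 10, with 3.22% of the cells, listed 10 members and 10 were lower, against 98.5% of all entries of the cluster, with 0 higher, against 0%. Their median detection was 20.3% inside and 78.8% outside, and the median difference was -58.6 points for members and -48.4 points for all entries. Atp5a1, the alpha subunit of the ATP synthase, was at 20.9% against 91.5%, Ndufb1-ps at 24.9% against 86.2%, and Cycs at 14.1% against 74.8%. Mitochondrially encoded transcripts were lower in 9 of 9 there. Since nearly every entry of clusters 4 and 10 was lower, the members' counts in these clusters are not a result about the respiratory chain.

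**Figure D3:**
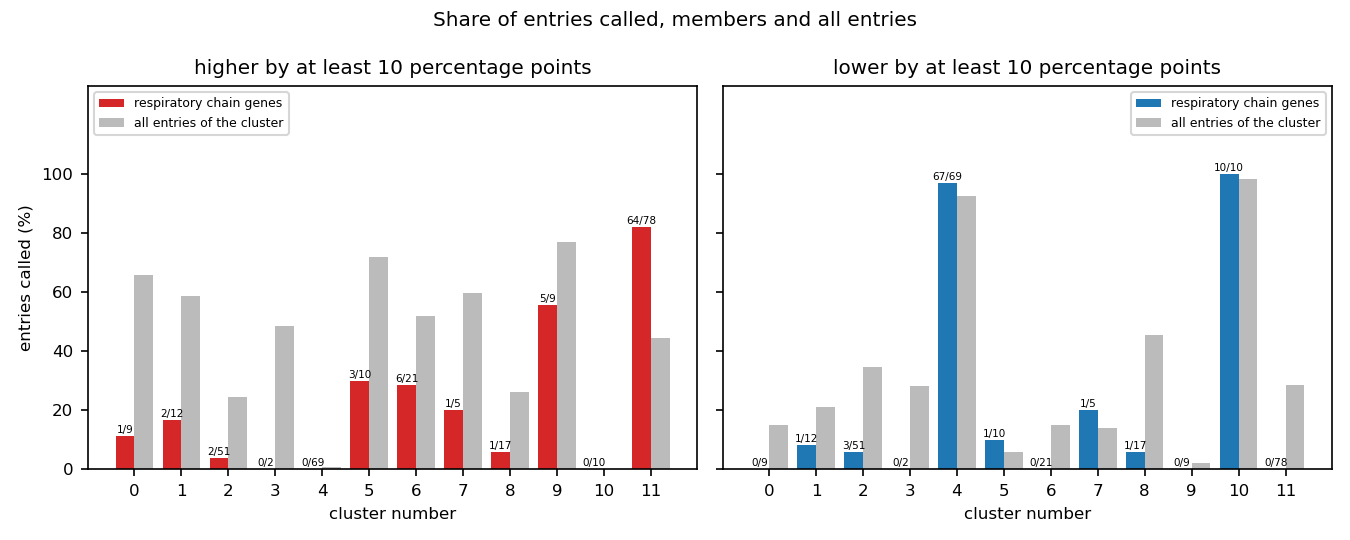
Bars give the percent of entries called higher (left) or lower (right) by at least 10 percentage points in each of the 12 clusters, for the respiratory chain genes in colour and for all entries of the cluster in grey; the labels give members called over members listed. Cluster 11 is the cluster where the share of members called higher (82.1%) exceeds that of all entries (44.4%), and in cluster 4 the shares called lower are 97.1% and 92.8%.

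In cluster 2, with 12.1% of the cells, differences were small. Of 51 members 2 were higher, against 24.6% of entries, and 3 lower, against 34.5%, and the median difference was 1.9 points. Complex I and the rest of the chain leaned in different directions. Without Ndufa4l2, 11 of 19 listed complex I genes were detected in fewer cells of the cluster than of the others (median difference -2.5 points), while 26 of 31 other members were detected in more (median 3.8 points). The members lower by 10 points were all of complex I, Ndufs8 (36.7% against 56.3%), the membrane-arm subunit Ndufa11 (60.7% against 74.1%) and Ndufb6 (55.0% against 67.5%). The same lean followed detection over all entries. Members detected in fewer than 80% of other cells had a median difference of -7.0 points (all entries -8.9) and those at 80% or more 3.0 points (all entries 3.3). Complex I genes had the lower detection outside (median 79.6% against 88.4% for the others), so the complex and the detection level cannot be told apart here.

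The member that was higher in cluster 2 beside Ndufa4l2 was Cox7a2l, at 97.0% against 86.1%. Among ATP synthase genes of this cluster, Atp5g2 was at 95.6% against 88.9% and Atp5g3 at 93.1% against 87.1%. Cluster 8, with 5.92% of the cells, resembled cluster 2 in the same respect. It had 1 of 17 members higher, against 26.2% of entries, and 1 lower, against 45.6%. There 4 of 5 complex I genes other than Ndufa4l2 were below 0 (median -2.7 points) and 10 of 11 other members above 0 (median 4.2 points). Here too the lean followed detection over all entries, with 5 of 5 members detected in fewer than 80% of other cells below 0 (median -3.3 points, all entries -13.7) and 11 of 11 at 80% or more above 0 (median 4.2 points, all entries 2.5). Clusters 2 and 8 also had 4 of 4 and 7 of 8 listed adipocyte markers higher, against 24.6% and 26.2% of entries. Plin4 of cluster 8, at 8.3% in the other cells, lay below the authors' minimum there and could only be higher.

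Clusters 5, 6 and 9 had higher detection of markers of dividing cells, with 7 of 7, 8 of 8 and 6 of 6 listed markers higher. Of all entries, 72.1%, 51.9% and 76.9% were higher. The 3 clusters differed in adipocyte markers. In cluster 6, 4 of 4 listed were higher, as in cluster 2. In clusters 5 and 9, 0 were higher, and 5 of 7 and 2 of 4 were lower, against 5.87% and 1.92% of entries. In cluster 6, with 7.46% of the cells, 21 of 21 members were above 0. Their median difference was 8.6 points, against 10.7 points for all entries. Of the 21 members 6 were higher, against 51.9% of entries, with 0 lower, against 14.9%. These 6 were Ndufa4l2, Ndufb8 (89.0% against 77.2%), Ndufb7, Ndufs5, Atp5md and Cox5b (95% against 84.9%). Cluster 9 had 5 of 9 members higher, against 76.9% of entries, and 0 lower, against 1.92%. Here Ndufa11 was at 93.0% against 71.2%, Ndufb8 at 95.9% against 77% and Cox7a2 at 96.8% against 82.1%, and the c-subunit genes Atp5g1 (98.4% against 87.0%) and Atp5g2 (99.3% against 89.2%) completed the group.

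In cluster 5, 3 of 10 members were higher, against 72.1% of entries, and 1 was lower, against 5.87%. Ndufaf2, an assembly factor of complex I, had its only entry there, at 70.4% inside and 39.3% outside the cluster. Atp5g1 (99.2% against 86.6%) and Uqcr11, a small subunit of complex III (93.2% against 82.7%), were the others. The shares of members called higher in clusters 5, 6 and 9 were below those of all entries. In cluster 6 this turned with the threshold, since 19 of 21 members (90.5%) were higher by at least 5 points, against 65% of entries.

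The remaining clusters listed few members. Cluster 0 had 1 of 9 higher, against 66% of entries, and 0 lower, against 15%, and cluster 1 had 2 of 12 higher, against 58.8%, and 1 lower, against 21%. Cluster 7 had 1 of 5 higher, against 59.8%, and 1 lower, against 13.9%. Cluster 3 listed 2 members, Uqcr11 and Atp5a1, with 0 higher and 0 lower, against 48.7% and 28.3% of entries. All 4 clusters had a smaller share of members called higher than of entries, and many members missed the minimums for an entry there.

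Several members were called in clusters other than 4, 10 and 11. Ndufa4l2 (chr10:127514967-127517154, plus strand), a paralog of Ndufa4 known for its induction in low oxygen, was listed in 11 of 12 clusters, more than any other member, and detected in 72.5% of all cells. It was higher in 4 clusters. Its detection reached 95.8% against 69.3% outside (cluster 2), 92.7% against 71.2% (cluster 8), 91.5% against 69.4% (cluster 1) and 91.5% against 70.9% (cluster 6). It was lower in 4 others, from 63.1% against 73.4% (cluster 5) and 55.2% against 73.7% (cluster 7) down to 33.9% against 76.6% (cluster 4) and 18.9% against 74.2% (cluster 10). In cluster 11 it was at 82.2% against 72.3%, the lowest detection among the 38 complex I genes listed there. Ndufa4 itself, which is named for complex I but has since been placed in complex IV, was listed in 4 clusters and called only in cluster 4 (61.2% against 93.6%).

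Of the isoform pairs of complex IV, Cox6a1 and Cox6a2 shared no listed cluster, while Cox7a1 and Cox7a2 shared clusters 4 and 11. Cox7a1 (chr7:30184144-30186078, plus strand) was listed in 5 clusters. Beside the 72.3% and 19.5% of clusters 11 and 4, its detection was 8.2% and 7.0% in clusters 0 and 5, and 4.8% against 16.3% in cluster 1, where it was called lower. Cox7a2 was detected in 83.0% of all cells and was higher in clusters 9 and 11 and lower in cluster 4. Cox6a2 (chr7:128205435-128206387, minus strand) had 1 entry, in cluster 1, with 30.3% of the cells against 9.8% of the others. Cluster 11, where Cox7a1 was highest, had no entry for Cox6a2. Its partner Cox6a1 was detected in 88.8% of all cells and differed in cluster 11 (100% against 88.6%) and cluster 4 (58.4% against 92.0%). The isoform genes Cox4i2, Cox6b2 and Cox8b had no entry in any cluster.

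The 3 genes for subunit c of the ATP synthase were not called in the same set of clusters, though some clusters were shared. Atp5g1 (chr11:96068852-96075670, minus strand) was higher in clusters 0 (98.2% against 86.0%), 5, 9 and 11, and had no entry in cluster 4. In the clusters with no entry its detection came to 78.5% on average, against 87.7% over all cells. Clusters 4 and 10, where nearly every entry was lower, are among them, so this average is not particular to Atp5g1. Atp5g2 was lower in cluster 4 and higher in cluster 9, and came to 95% on average in the clusters with no entry, cluster 11 among them. Atp5g3 was higher in cluster 11 alone (100% against 87.7%) and lower in cluster 4 (59.4% against 90.9%).

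Ndufa11 (chr17:56717767-56722141, plus strand) was higher in clusters 7 (85.2% against 71.6%), 9 and 11 and lower in clusters 2 and 8 (61.6% against 73.2%). Cycs (chr6:50562563-50566538, minus strand) was listed in 6 clusters. Detection of Cycs in clusters 0, 2 and 1 was 79.6%, 74.6% and 67.4%, each within 10 points of the other cells, and it was called in clusters 11, 4 and 10 only. Atpif1 was higher in clusters 0 (96.1% against 80.4%), 3, 5 and 9, and lower in clusters 4 (18.4% against 89.5%) and 10. In the plot of 6 of these members by cluster, Cox7a1, Ndufa11 and Cycs have their highest listed detection in cluster 11, and Ndufa4l2, Cox6a2 and Atp5g1 in clusters 2, 1 and 5.

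**Figure D4:**
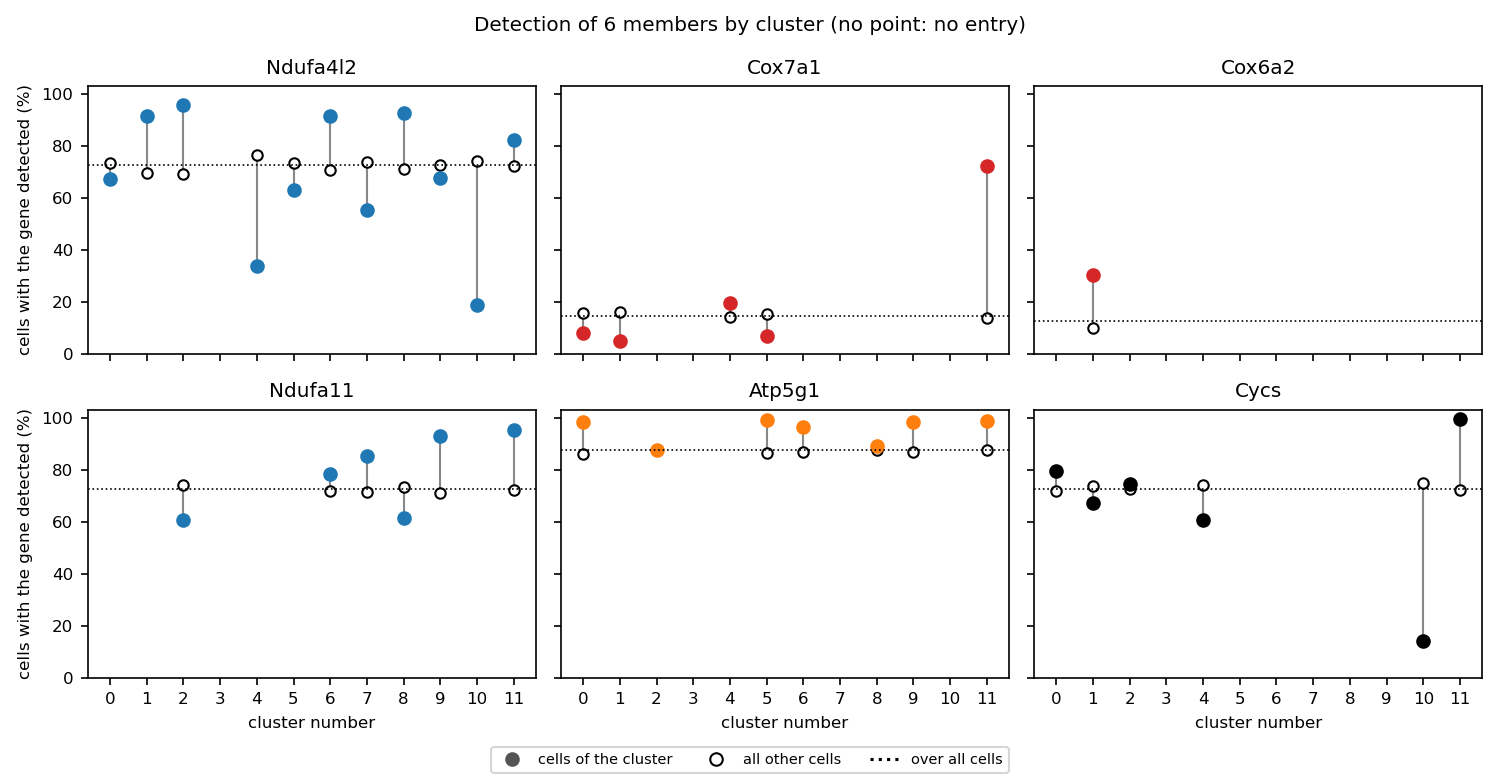
Detection in percent of cells (vertical axis) is plotted by cluster number for Ndufa4l2, Cox7a1, Cox6a2, Ndufa11, Atp5g1 and Cycs; filled points are the cells of the cluster, open points all other cells, the dotted line all cells, and a cluster without a point has no entry. Ndufa4l2 peaks in cluster 2 (95.8%), Cox7a1 in cluster 11 (72.3%), Cox6a2 stands in cluster 1 alone (30.3%), and Cycs runs from 14.1% in cluster 10 to 99.6% in cluster 11.

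The members are spread over many chromosomes. Distances between them were not measured, and some lie near each other, such as Ndufs8 (chr19:3908863-3912774) and Ndufv1 (chr19:4007384-4012806). In mm10 with GENCODE M21 gene models, 82 of the 83 have a position, on 19 chromosomes with at most 7 on 1 chromosome, and 81 are protein coding. Promoters were read from RefSeq (GRCm38.p6, the same assembly as mm10) for 69 members, as 250 bases before and 50 bases after the start site, because most of these genes were higher together in cluster 11. NRF1, YY1 and the estrogen-related receptors (ERR) are factors known for respiratory chain genes, and short forms of their motifs were searched on both strands. The NRF1 core GCATGCGC was found in 11 of 69 members (15.9%), against 6.08% of 3011 other symbols of the table and 3.05% of all 27025 symbols with such a window. The YY1 motif AAGATGGC was also found in 11 members (15.9%), against 4.65% and 3.19%. The ERR motif TCAAGGTCA was found in 1 member (1.45%), against 0.299% and 0.466%. A match of the NRF1 core can overlap its own reverse complement, which gives a run of 10 letters. Altogether 23 members held a match of any of the 3 motifs. The comparison was not matched for the wide detection of the members or for base content. Members with and without a match were not compared in cluster 11, so a part of these motifs in its differences was not tested.

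Promoter stretches are shown here for members with the patterns above, with motif letters in capitals, each read 5′ to 3′ on the strand of the gene. The first 4 hold the NRF1 core upstream of the start site, in Cycs (chr6:50566570-50566669, minus strand), Ndufa11 (chr17:56717672-56717731, plus strand), Cox6a1 (chr5:115349089-115349148, minus strand) and Atp5g2 (chr15:102671058-102671117, minus strand).
Cycs: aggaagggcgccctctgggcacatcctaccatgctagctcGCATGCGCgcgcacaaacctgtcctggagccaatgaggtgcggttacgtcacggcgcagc
Ndufa11: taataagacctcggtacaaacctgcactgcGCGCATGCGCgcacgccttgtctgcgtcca
Cox6a1: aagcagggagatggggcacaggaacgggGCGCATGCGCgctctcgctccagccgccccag
Atp5g2: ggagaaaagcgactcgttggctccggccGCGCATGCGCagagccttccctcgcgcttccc
In the last 3 of these the core overlapped its reverse complement. In 9 of the 11 members the NRF1 core lay before the start site. These genes were not called in the same clusters, as Ndufa11 was lower in cluster 2 and the other 3 were within 10 points there.

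The ERR motif of Atp5g3 (chr2:73911347-73911406, minus strand) stood in reverse upstream of its start. The YY1 motif lay after the start site in 9 of its 11 members, inside the transcribed part, as in Ndufb8 (chr19:44555393-44555412, minus strand).
Atp5g3: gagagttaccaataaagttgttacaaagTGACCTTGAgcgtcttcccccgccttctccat
Ndufb8: agaaggtgAAGATGGCtgcc
Cox7a1, which had the largest difference in cluster 11, held none of the 3 motifs in its window, of which the 250 bases before the start are shown (chr7:30183921-30184170, plus strand).
Cox7a1: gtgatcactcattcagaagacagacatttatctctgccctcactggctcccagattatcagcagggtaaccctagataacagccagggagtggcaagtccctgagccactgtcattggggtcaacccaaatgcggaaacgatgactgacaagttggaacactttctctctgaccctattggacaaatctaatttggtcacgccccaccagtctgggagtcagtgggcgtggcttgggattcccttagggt
That no match was found says only that these letters are absent from this window.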

How the data were processed

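Droplet libraries (3′ chemistry) of 8 cultures were made by the authors, read with Cell Ranger 6.0.0 per the labels, aligned to mm10 and equalized for depth. Per the study's methods, Seurat was then used to remove cells with few genes or many mitochondrial reads and immune, glial and endothelial cells, and to cluster the rest. Doublet removal is not described there and was not possible here. The deposited table gives, for each cluster against all other cells, the fraction of cells with a gene detected inside and outside, which were printed as percents. It also holds the authors' MAST fold changes and p-values with adjusted p-values, which treat cells as replicates and were not used. The number of columns of single samples left unused was 0.

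Calls were made at 10 percentage points. Log2 odds ratios held fractions within 0.0005 and 0.9995. The share of cells in each cluster was found by least squares from the 10 genes listed in every cluster, and detection over all cells is the mean of inside and outside weighted by them. For 1 gene, values from different clusters lay within 0.1 points. Python 3.11.15, numpy 2.4.6, pandas 2.3.3 and matplotlib 3.10.9 were used, and the calculation was tested on simulated fractions. Named genes were fixed by rule: complex IV isoform pairs, Cycs, Cyc1, Ndufa4, Ndufa4l2, the ATP synthase inhibitor, the 2 largest differences per complex in clusters with at least 5 members listed, the 5 members in most clusters, and the 3 most and least detected. Others were named as list members or after their values had been seen. Members and lists were chosen with earlier results of these data known. Alternatives were calls at 5 or 20 points, by a log2 odds ratio of 1, with a larger detection of at least 25%, and without assembly factors.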

Additional observations from a re-analysis of the deposited data

How the results depend on the processing

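No paired analysis was possible because all samples were pooled in 1 table. The lack of replicates, cell numbers and depth limits every value to a description. Detection has little room to differ near 100%, and clusters 4 and 10 had low detection of nearly all genes listed.

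Counts of members called moved most with the threshold. At 5 percentage points, clusters 0, 1, 2, 4, 5, 6, 7, 8 and 9 had 5, 4, 6, 1, 7, 19, 4, 2 and 8 members higher, in this order (55.6%, 33.3%, 11.8%, 1.45%, 70%, 90.5%, 80%, 11.8% and 88.9% of members listed, against 71.9%, 65.3%, 31.9%, 1.45%, 80.7%, 65%, 70.2%, 31.2% and 85.1% of all entries), and clusters 0, 1, 2, 5 and 9 had 2, 2, 8, 2 and 1 lower (22.2%, 16.7%, 15.7%, 20% and 11.1%, against 18.4%, 24.7%, 42.6%, 9.37% and 4.16%). At 20 points, 34 members were higher in cluster 11 (43.6%, against 35% of all entries), 1 in each of clusters 2, 5, 6 and 9 (against 14.1%, 61.4%, 43.6% and 59.7%) and 0 in clusters 0 and 7 (against 39.2% and 22.4%), and 0 were lower in clusters 1, 2, 5, 7 and 8 (against 3.98%, 15.2%, 0.851%, 3.33% and 23.9%). By a log2 odds ratio of at least 1, clusters 0, 2, 5, 6, 7 and 8 had 2, 10, 6, 15, 4 and 5 members higher (22.2%, 19.6%, 60%, 71.4%, 80% and 29.4%, against 71.8%, 36.5%, 77.3%, 59.5%, 67.8% and 36.1%), and clusters 0, 2 and 8 had 1, 1 and 0 lower (against 12.7%, 25.8% and 38.2%). With a larger detection of at least 25%, 0 were lower in cluster 1. Leaving out the assembly factors kept 24 of 24 counts within 1.5 times, and other cluster shares moved detection over all cells by at most 0.018 points. An alternative chosen after seeing the data took only entries detected in 50 to 95% of the other cells. It left the counts of clusters 11 and 4 at 58 higher and 57 lower.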
